A study of Mus musculus with 9 samples.

Results

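Chemokine ligands are small secreted proteins that draw leukocytes along a gradient, and their genes were taken as the set described here. The 41 genes were those of the deposited count table whose symbols follow the Ccl and Cxcl numbering, together with Cx3cl1, Xcl1, Pf4 and Ppbp, out of 56748 genes in all. Of these, 28 had enough counts to be tested and 13 did not, and 2 of the 13 had 0 counts in every library. Polyadenylated RNA was sequenced from 3 libraries in each of 3 groups of wild-type (WT) C57BL/6J mice aged 2 to 3 months. Reactive cultures came from dissected cores of stab-wound lesions, were kept in medium that contained 10% fetal bovine serum, and were harvested whole, with no sort. Injured cortex was the core of a grid of lancet stab wounds, and uninjured cortex was intact tissue. Both were dissociated and passed through flow cytometry, which removed debris, dead cells and the neuronal fraction (positive for CD171, negative for ACSA-2). By the labels, tissue was dissected 1 day after injury and then cultured for 6 days, but by the design text injured cortex was taken at 3 days, and the cultures began at 24 h and lasted 8 days. These times are left as the sources give them. The series calls the 3 libraries of a group biological replicates, and no label says whether the cultures and the injured tissue came from the same mice.

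Chemokines are grouped by the spacing of their first cysteines into the CC, CXC, CX3C and XC families, and they act through G protein-coupled receptors on the target cell. The pairing of ligand and receptor sets which cells come: CXCR2 ligands act on neutrophils, CCR2 ligands on inflammatory monocytes, CXCR3 ligands on T and NK cells, and CCR7 ligands on dendritic cells. In injured brain, microglia and astrocytes are known sources of many of them, and transcription of the inflammatory members is driven by NF-kB and interferon signalling.

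Library totals were 16667883 to 24302770 counts in the cultures, 20389561 to 21135163 in injured cortex and 12205049 to 18577561 in uninjured cortex. The 7 microglial markers summed to 1370.1 to 2104 CPM (counts scaled to library size, TMM-normalised) in the cultures, 4771 to 14404 in injured cortex and 8159 to 13149 in uninjured cortex. P2ry12, which marks resting microglia, was at 4.62 to 11.7 CPM in the cultures, and the oligodendrocyte gene Mog and the astrocyte gene Aqp4 were at most 1.15 CPM there, against at least 114 CPM in every cortex library. The macrophage list, led by the lysosomal gene Cd68, summed to 5199.8 to 6572 CPM in the cultures, 814 to 2852 in injured cortex and 849.7 to 1167 in uninjured cortex. Against uninjured cortex 4 of its 6 genes were called higher in the cultures and 2, Lyve1 and Cd163, lower, where 27.5% of all genes were higher and 33.1% lower. Against injured cortex 3 were called, all higher (50%), where 50.1% of all genes were called, 20.0% higher and 30.1% lower. Neuronal markers summed to 5.18 to 18.9 CPM over all 9 libraries. Uninjured replicates 2 and 3 stood apart in 152 and 112 CPM over 2003 olfactory and vomeronasal receptor genes, against 18.4 to 39.0 CPM in the other 7 libraries. Results for the ligand genes as a set against uninjured cortex are therefore also given without both of them.

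All 41 ligand genes together took 0.256%, 0.272% and 0.293% of the counts in the cultures, 1.04%, 1.33% and 0.696% in injured cortex and 0.570%, 0.203% and 0.159% in uninjured cortex. In summed TMM-normalised CPM this was 3413, 3796 and 3826 in the cultures, 10203, 14223 and 5009.7 in injured cortex and 5048, 1695 and 1184 in uninjured cortex. Injured replicates 1 and 2 were above every other library, while injured replicate 3 and uninjured replicate 1 were nearly level, and the cultures lay within the span of uninjured cortex. No test was run on these sums. In bulk RNA, fewer cells of a type and less RNA per cell cannot be told apart, and this holds for every level below.

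Per kilobase of exon, 1 gene led both cortex groups. Ccl4, which encodes macrophage inflammatory protein 1 beta, averaged 696 ± 113 CPM per kb in the cultures, 7696 ± 3985 in injured cortex and 2032 ± 1937 in uninjured cortex (SD, n = 3 each). It made up 20.3% to 26.2% of the summed CPM per kb of the ligand genes in the cultures, 57.4% to 63.8% in injured cortex and 50.2% to 63.9% in uninjured cortex. In injured cortex it stood above Ccl3, at 1934 ± 1032 CPM per kb, without overlap, and each of the next ranks (Ccl12, Ccl2, Ccl7, Cxcl10, Ccl6) overlapped its neighbour. In the cultures Ccl6 and Ccl4 overlapped at the top, Ccl6 averaging 698 ± 111 CPM per kb (SD, n = 3), and Pf4 and Ccl2 overlapped in the next places at 396 ± 114 and 374 ± 56.3. Exon lengths came from an annotation of an earlier mouse genome build, GRCm38, than the one the reads were aligned to.

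**Figure D1:**
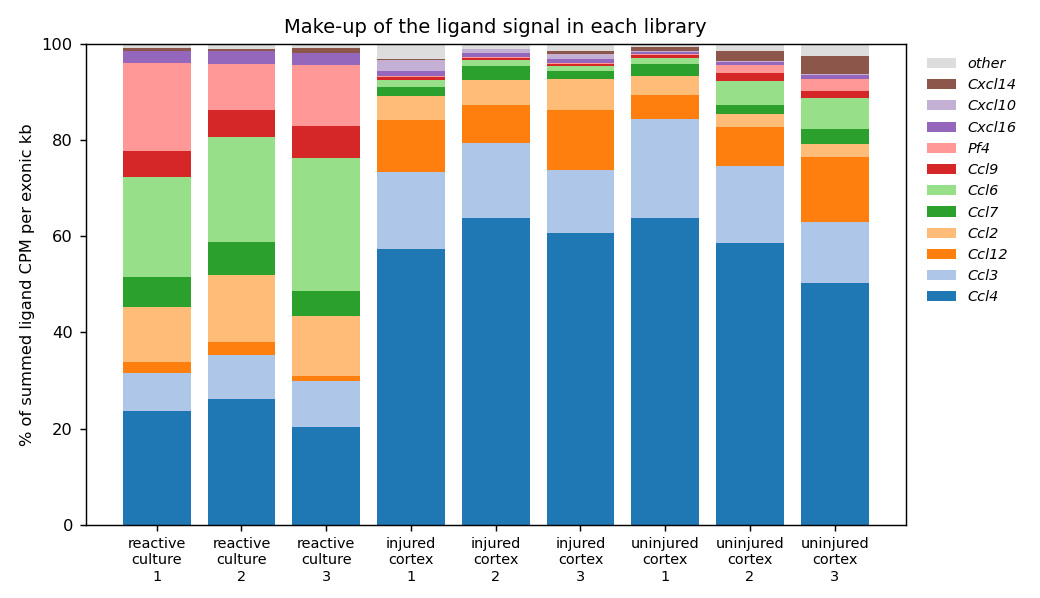
Stacked bars give the share of each ligand gene in the summed CPM per exonic kb of the 41 genes, for each of the 9 libraries (y axis, %). Ccl4 (lowest segment) filled 20.3% to 26.2% of the bar in the 3 cultures, 57.4% to 63.8% in the 3 injured libraries and 50.2% to 63.9% in the 3 uninjured libraries.

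Injured against uninjured cortex asks what the wound changed in sorted non-neuronal cells. Of the 28 tested ligand genes, 10 were higher in injured cortex and 0 lower (35.7% called), against 11.9% of all 18093 genes called in either direction, 8.99% higher and 2.87% lower. In order of fold they were Cxcl3, Cxcl10, Ccl5, Cxcl11, Ccl22, Cxcl2, Cxcl16, Ccl2, Ccl12 and Cxcl1, with log2 fold changes between 2.20 and 5.25 in edgeR's quasi-likelihood test. The median log2 fold change of the 28 was 1.74, against 0.00 over all genes. The groups did not overlap for 12 genes that were higher and 2 that were lower in injured cortex, which is 50% of the 28, against 28.6% of all genes (16.1% higher, 12.5% lower). At an unadjusted p under 0.05, which 26.2% of all genes passed, 16 ligand genes were higher and 1 lower in injured cortex. The Wald test of DESeq2 called 13 higher and 1 lower, and limma-voom called 11 higher and 0 lower.

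The count depended on single libraries. Without injured replicate 3, which was the lowest of the injured group for all 10 genes, 18 ligand genes were called higher and 2 lower, and 4102 of all genes were called, against 2145 with it. Without uninjured replicates 2 and 3 together, 1 uninjured library is left, assumed to vary like the other groups. Cxcl10 then kept its call, 462 of all genes were called, and the log2 fold changes of all 10 ligand genes stayed positive, at 1.35 to 4.48. Over all other alternatives 4 of the 10 lost the call in at least 1 (Ccl2, Cxcl2, Cxcl1 and Cxcl11). Here and below a call is one of edgeR's quasi-likelihood test over all 9 libraries, unless another is named. The share of higher genes among all calls was 75.8%, and it was 64% with upper-quartile scaling and 64.5% with library sizes computed without mitochondrial and the 100 most abundant genes.

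The cultures set against each cortex group ask how far lesion-derived cells kept the ligand levels of the tissue. Against injured cortex, 15 of 28 ligand genes were lower in the cultures and 4 higher (67.9% called), where 50.1% of all genes were called, 30.1% lower and 20.0% higher. The 4 higher genes were Pf4, Ccl6, Cx3cl1 and Ccl9. The median log2 fold change of the 28 was -2.22, against -0.19 over all genes. Against uninjured cortex, 7 ligand genes were higher in the cultures (Pf4, Ccl6, Cxcl3, Ccl9, Cx3cl1, Cxcl16 and Ccl2) and 8 lower (Cxcl11, Xcl1, Cxcl2, Ccl19, Cxcl10, Ccl12, Ccl4 and Cxcl14). That is 53.6% called, where 60.5% of all genes were called, 27.5% higher and 33.1% lower, so the share of ligand genes called did not exceed the background. Their median was -0.14, against -0.17 over all genes, and both medians were the same with genes at 0 counts in the cultures set at their bound. The 3 comparisons share libraries and are not independent of each other. Without uninjured replicates 2 and 3 together, 1 uninjured library is left. All 15 ligand genes called against uninjured cortex then kept their sign, at log2 fold changes of -5.92 to 4.38. Ccl2 was at 0.49, Cxcl16 at 1.42, Cxcl3 at 1.82 and Cxcl14 at -1.275. Against injured and uninjured cortex the share of higher genes among all calls was 39.9% and 45.4%, and 29.6% and 32% with the library sizes that leave out the most abundant genes.

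**Figure D2:**
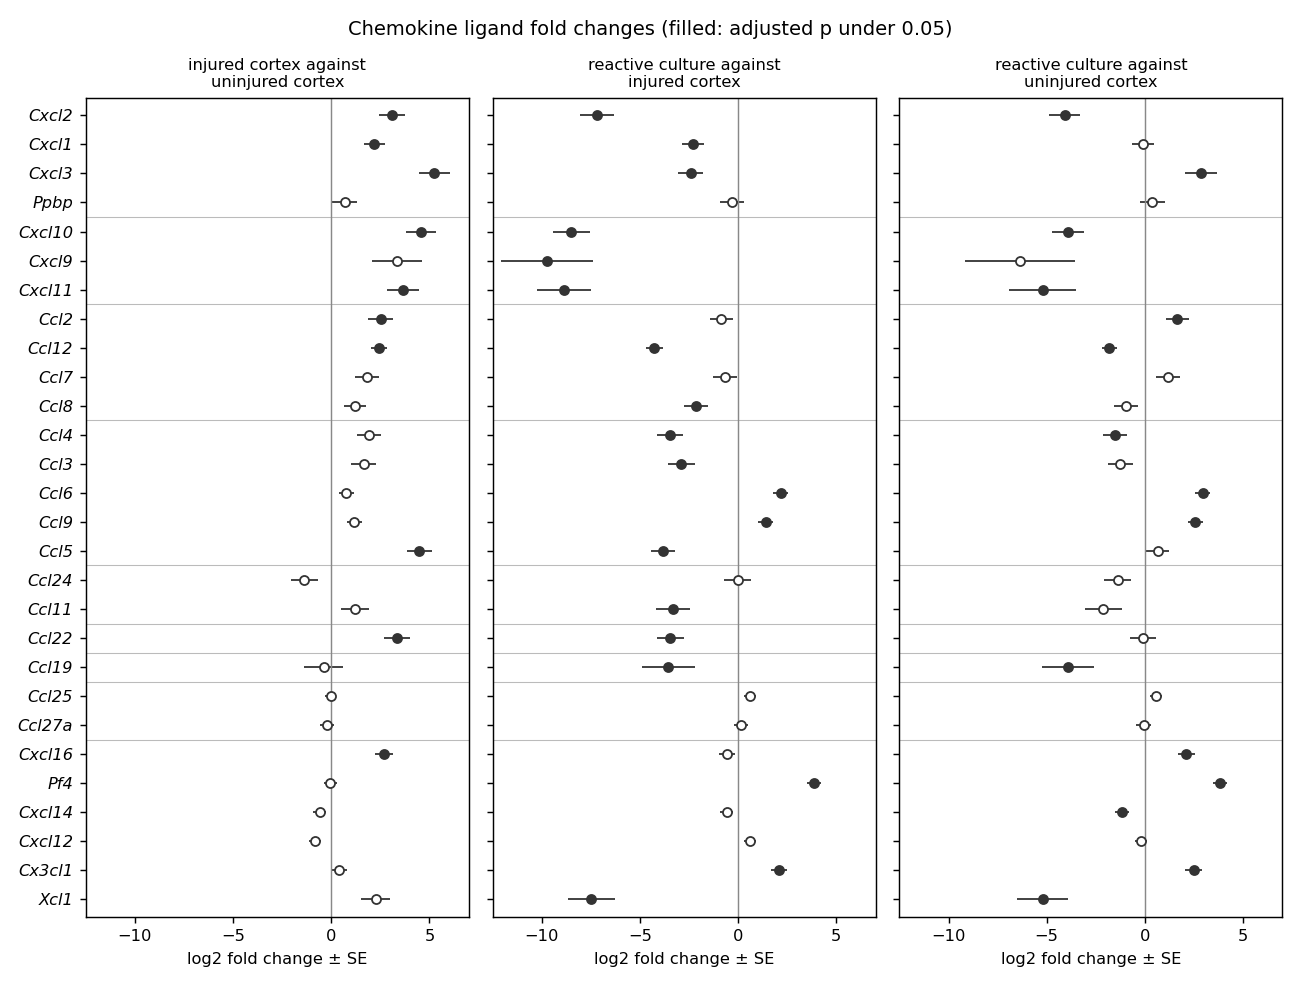
Log2 fold changes ± SE of the 28 tested ligand genes in the 3 comparisons, with filled points for an adjusted p under 0.05 in edgeR's quasi-likelihood test. The left panel holds 10 filled points, all above 0, the middle panel 15 below and 4 above 0, and the right panel 8 below and 7 above 0.

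The neutrophil attractants Cxcl1, Cxcl2 and Cxcl3, which act through CXCR2, were all higher in injured than in uninjured cortex and all lower in the cultures than in injured cortex. Their promoters, with those of Cxcl10 and Ccl22, are shown because these 5 tested ligand genes held a match to a kappaB pattern in the 250 bases before the transcription start. That pattern, GGGANNNTCC, only approximates the sequences bound by NF-kB dimers. Other forms were not searched, so such sequences can lie unmarked in these windows. Sequences are from RefSeq (build GRCm38.p6), 5′ to 3′ on the strand of the gene, and end at the base before the start. Capitals mark GGGANNNTCC on either strand, in Cxcl10 also GAAANNGAAA, a pattern of interferon-stimulated response elements, and in Cxcl3 also TATAAA, which was searched on the strand of the gene only. The windows are chr5:90890995-90891244 (Cxcl1, plus strand), chr5:90903649-90903898 (Cxcl2, plus), chr5:90785851-90786100 (Cxcl3, plus), chr5:92348890-92349139 (Cxcl10, minus) and chr8:94745434-94745683 (Ccl22, plus).
Cxcl1: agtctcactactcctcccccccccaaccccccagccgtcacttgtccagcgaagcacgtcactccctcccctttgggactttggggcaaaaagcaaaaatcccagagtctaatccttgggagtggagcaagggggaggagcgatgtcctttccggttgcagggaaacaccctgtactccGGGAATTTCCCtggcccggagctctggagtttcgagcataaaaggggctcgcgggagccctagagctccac
Cxcl2: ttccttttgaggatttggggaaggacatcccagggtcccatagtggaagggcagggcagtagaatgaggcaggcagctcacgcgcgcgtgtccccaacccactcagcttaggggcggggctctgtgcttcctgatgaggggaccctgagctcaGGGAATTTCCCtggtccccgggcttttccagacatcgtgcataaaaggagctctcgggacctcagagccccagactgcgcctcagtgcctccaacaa
Cxcl3: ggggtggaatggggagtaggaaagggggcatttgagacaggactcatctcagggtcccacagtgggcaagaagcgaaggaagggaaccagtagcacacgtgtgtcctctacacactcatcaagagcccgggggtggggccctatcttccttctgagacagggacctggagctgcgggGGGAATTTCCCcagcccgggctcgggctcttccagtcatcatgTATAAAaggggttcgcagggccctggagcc
Cxcl10: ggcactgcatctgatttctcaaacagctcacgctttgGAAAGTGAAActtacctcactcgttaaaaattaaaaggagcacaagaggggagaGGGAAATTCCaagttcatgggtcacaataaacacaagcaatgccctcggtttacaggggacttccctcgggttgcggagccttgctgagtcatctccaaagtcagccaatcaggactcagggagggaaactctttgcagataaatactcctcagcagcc
Ccl22: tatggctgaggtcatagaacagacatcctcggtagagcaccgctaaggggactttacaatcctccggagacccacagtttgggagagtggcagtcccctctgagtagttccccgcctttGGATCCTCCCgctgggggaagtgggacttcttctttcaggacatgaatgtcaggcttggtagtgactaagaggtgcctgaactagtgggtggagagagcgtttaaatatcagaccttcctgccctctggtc
Cxcl1, Cxcl2 and Cxcl3 held the same 11-base stretch, GGGAATTTCCC, starting 71, 97 and 73 bases before the start. In Cxcl10 the match, GGGAAATTCC, began 159 bases before the start, and in Ccl22 the match, GGATCCTCCC read on the plus strand, began 131 bases before it. The pattern was present in 3.86% of 32851 promoter windows of this length. Windows were found for 30 of the 41 ligand genes, and 6 held the pattern, the sixth being Ccl1, which was not tested. Of the 20 tested genes with a window, all 5 with the pattern were higher in injured cortex, and 1 of the 15 without it, Ccl12, but 4 of the 10 genes called higher (Ccl5, Cxcl16, Ccl2 and Cxcl11) had no window. Over all tested genes with a window, 11.5% of 644 with the pattern and 9.54% of 11641 without it were called higher in injured cortex. All 5 were also lower in the cultures than in injured cortex, as were 6 of the 15 without it. Over all tested genes with a window, 31.4% with the pattern and 27.5% without it were called lower there. Against uninjured cortex 1 of the 5 was higher in the cultures, 2 were lower and 2 were not called. Of the 15 without it, 4 were higher, 4 lower and 7 not called. Over all tested genes with a window, 29.7% with the pattern were higher and 34.3% lower, and 30.2% and 29.6% without it. The pattern was chosen with these results known, the counts carry no test, and a match in sequence is no measurement of binding. The response element pattern was found in 3 windows (Cxcl10, Ccl19 and Cxcl14) and in 2.98% of all, and TATAAA in 10 and in 7.59% of all. No match of 1 pattern overlapped a match of another, while the 11-base stretch matches GGGANNNTCC on both strands. The 10 genes of NF-kB subunits and inhibitors summed to 403, 424 and 491 CPM in the cultures, 3400.4, 4602 and 2664 CPM in injured cortex and 2633, 1409 and 753 CPM in uninjured cortex, and their part in the ligand results was not tested.

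Cxcl2 was at 0.86, 0.805 and 0.783 CPM in the cultures, 170.1, 129.6 and 58.2 CPM in injured cortex and 32.3, 6.93 and 3.05 CPM in uninjured cortex. All injured libraries were above all uninjured ones, and the cultures were nearly level with each other below both. Its log2 fold change was 3.08 ± 0.67 (SE, adjusted p = 0.0113) in injured against uninjured cortex, and the adjusted p was 0.0587 without uninjured replicate 2, while without uninjured replicate 1 the log2 fold change was 4.58. In the cultures it was -7.18 ± 0.87 (adjusted p = 3.85e-05) against injured and -4.10 ± 0.81 (adjusted p = 0.000963; -2.60 without uninjured replicate 1) against uninjured cortex. Cxcl1 was at 1.23, 2.47 and 2.66 CPM in the cultures, 15.1, 8.69 and 7.28 CPM in injured cortex and 2.82, 3.33 and 0.549 CPM in uninjured cortex. Only the injured group stood clear, since the cultures and uninjured cortex overlapped. It was higher in injured than in uninjured cortex by 2.20 ± 0.55 (log2, adjusted p = 0.0229; 0.109 without injured replicate 1) and lower in the cultures than in injured cortex, at -2.29 ± 0.56 (adjusted p = 0.00528).

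Cxcl3 was at 0.676, 0.517 and 1.25 CPM in the cultures, 7.69, 3.61 and 1.67 CPM in injured cortex and 0.221, 0.045 and 0.061 CPM in uninjured cortex. The uninjured level rested on 6 counts over 3 libraries, and the 3 groups did not overlap. The log2 fold change was 5.25 ± 0.79 (adjusted p = 0.00113) in injured against uninjured cortex and 2.84 ± 0.82 (adjusted p = 0.0102) in the cultures against uninjured cortex. Without uninjured replicate 1 these were 6.22 and 3.80, and without injured replicate 1 the first was 4.52. Among these 3 neighbouring genes, Cxcl3 alone was called higher in the cultures than in uninjured cortex, where Cxcl2 was called lower and Cxcl1 had a log2 fold change of -0.09 ± 0.56 (adjusted p = 0.896). The cultures were below injured cortex, at -2.42 ± 0.64 (adjusted p = 0.00821; 0.06 without injured replicate 1). Ppbp, the precursor of the platelet chemokine CXCL7, stayed between 0.46 and 2.04 CPM in all 9 libraries and was called in no comparison. Cxcl5, another CXCR2 ligand, was not tested and had 5 counts in the cultures, 50 in injured cortex and 11 in uninjured cortex.

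The CXCR3 ligands Cxcl9, Cxcl10 and Cxcl11, which are induced by interferons and draw activated T and NK cells, were among the genes furthest apart between the groups. Cxcl10 was at 1.29, 0.92 and 0.939 CPM in the cultures, 648, 343 and 148 CPM in injured cortex and 33.9, 10.8 and 3.29 CPM in uninjured cortex. The 3 groups did not overlap. The difference was 23.7-fold between injured and uninjured cortex (log2 4.57 ± 0.74, adjusted p = 0.00181), 15.1-fold without injured replicate 1 and 54.0-fold without uninjured replicate 1, and the call held in all 19 alternatives, with log2 fold changes between 3.47 and 5.76. The cultures were 359-fold below injured cortex (log2 -8.49 ± 0.92, adjusted p = 1.6e-05) and 15.1-fold below uninjured cortex (log2 -3.92 ± 0.80, adjusted p = 0.00126). Without injured replicate 1 the first was 233-fold, and without uninjured replicate 1 the second was 6.63-fold.

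Cxcl9 had 0 counts in all 3 cultures, and was at 14.0, 1.57 and 0.851 CPM in injured cortex and 0.11, 1.39 and 0 CPM in uninjured cortex. Injured replicate 1 was far above the rest, and uninjured replicate 2 lay within the injured range. Cxcl9 was not called between injured and uninjured cortex (log2 3.35 ± 1.28, adjusted p = 0.123). Cxcl11 also had 0 counts in the cultures, and was at 5.94, 2.25 and 1.06 CPM in injured cortex and 0.387, 0.09 and 0.244 CPM in uninjured cortex. It was higher in injured cortex without overlap (log2 3.67 ± 0.81, adjusted p = 0.0161), although the adjusted p was 0.112 with injured replicate 1 left out, 0.0773 with uninjured replicate 2 left out and 0.0614 with uninjured replicate 3 left out. In C57BL/6 mice this gene is known to carry a frameshift, so its transcript need not stand for a working protein. With a floor of 3 counts over the culture group, the cultures were at least 78.2-fold lower than injured cortex for Cxcl9 and at least 44.4-fold lower for Cxcl11, and at least 17.6-fold and 23.6-fold without injured replicate 1, which held 297 of 352 and 126 of 200 injured counts. Both were called lower than in injured cortex (adjusted p = 0.00632 and 0.000469). Cxcl11 was also called lower in the cultures than in uninjured cortex (adjusted p = 0.0234), on 0 against 13 counts. By the same floor that difference was at least 3.55-fold, and at least 2.41-fold without uninjured replicate 1. The call was lost in limma-voom (adjusted p = 0.0726) and without culture replicate 1 or 2 or uninjured replicate 1 (adjusted p = 0.0556 to 0.0598).

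**Figure D3:**
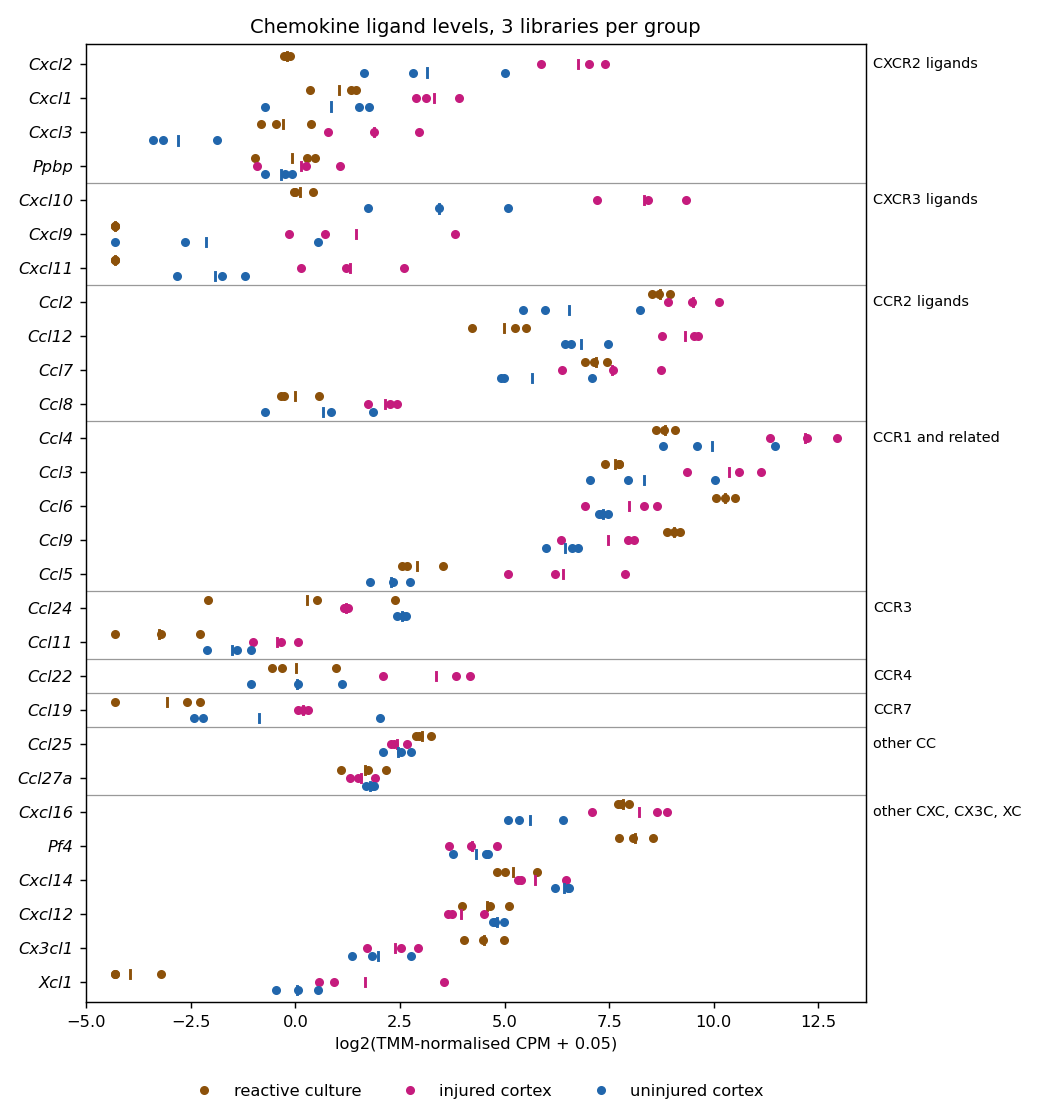
Levels of the 28 tested ligand genes as log2 of TMM-normalised CPM plus 0.05, 1 point per library and a vertical tick at the mean of each group, in blocks by receptor. The 3 cultures lie left of the injured and uninjured libraries for Cxcl2, Cxcl10 and Ccl12 and right of them for Ccl6, Ccl9, Pf4 and Cx3cl1.

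The CCR2 ligands Ccl2, Ccl7 and Ccl12, the main attractants of inflammatory monocytes, differed from each other in the cultures. Ccl2 was at 369, 495 and 413 CPM in the cultures, 709, 1125 and 478 CPM in injured cortex and 300.2, 62.3 and 43.4 CPM in uninjured cortex. The injured libraries were above the uninjured ones, with uninjured replicate 1 well above its group, and the cultures overlapped injured cortex. Ccl2 was called higher in injured cortex (log2 2.51 ± 0.62, adjusted p = 0.0201), but the adjusted p was 0.0517 to 0.0887 when injured replicate 1 or 2 or uninjured replicate 2 or 3 was left out, and 0.071 when the 2 groups were fitted alone. Without uninjured replicate 1 the log2 fold change was 3.88, and 3.02 in the cultures against uninjured cortex. It was called higher in the cultures than in uninjured cortex (log2 1.65 ± 0.60, adjusted p = 0.0307), a call that was lost in 8 of 19 alternatives. Against injured cortex its log2 fold change was -0.86 ± 0.59 (adjusted p = 0.239).

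Ccl12 was at 38.0, 45.5 and 18.5 CPM in the cultures, 735, 788 and 436 CPM in injured cortex and 178, 87.5 and 95.8 CPM in uninjured cortex. The 3 groups did not overlap, and the cultures were lowest. It was higher in injured than in uninjured cortex (log2 2.44 ± 0.39, adjusted p = 0.00173), and lower in the cultures than in injured (log2 -4.26 ± 0.43, adjusted p = 8.51e-06) and uninjured cortex (log2 -1.82 ± 0.39, adjusted p = 0.00158). So Ccl2 and Ccl12, whose genes lie in the same cluster of CC genes, were called on opposite sides of uninjured cortex in the cultures. Ccl7 was at 141, 174 and 122 CPM in the cultures, 192, 429 and 82.1 CPM in injured cortex and 136, 30.1 and 31.5 CPM in uninjured cortex. All 3 groups overlapped, and edgeR called it in no comparison (adjusted p = 0.0787 for injured against uninjured cortex, 0.00682 without uninjured replicate 1 and 0.0108 without injured replicate 3). For the cultures against uninjured cortex the adjusted p was 0.121, but 0.0426 in limma-voom and 0.00436 without uninjured replicate 1, both higher in the cultures. Ccl8, whose mouse protein is known to act through CCR8, was below 6 CPM throughout and was lower in the cultures than in injured cortex (log2 -2.15 ± 0.59, adjusted p = 0.00989).

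The ligands of CCR1 and their relatives held the most abundant genes, and the cultures were below injured cortex for Ccl4, Ccl3 and Ccl5 and above it for Ccl6 and Ccl9. Ccl4 was at 446, 540.0 and 393 CPM in the cultures, 4790.0, 7843 and 2606 CPM in injured cortex and 2804, 778 and 441 CPM in uninjured cortex. Uninjured replicate 1 lay within the injured range and far above the other uninjured libraries, 1 of which lay within the culture range. Ccl4 was not called between injured and uninjured cortex (log2 1.92 ± 0.61, adjusted p = 0.0621), but it was called higher by the Wald test of DESeq2 (adjusted p = 0.00954), by limma-voom (adjusted p = 0.0318), without uninjured replicate 1 (log2 3.07, adjusted p = 0.00424) and when injured replicate 3 was left out (adjusted p = 0.0137). It was lower in the cultures than in injured cortex (log2 -3.47 ± 0.65, adjusted p = 0.000979). The call against uninjured cortex (log2 -1.54 ± 0.60, adjusted p = 0.0425) was lost in limma-voom (adjusted p = 0.0866) and without any 1 of the cultures (adjusted p = 0.0752 to 0.122). Without uninjured replicate 1 its log2 fold change was -0.39 (adjusted p = 0.486).

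Ccl3, macrophage inflammatory protein 1 alpha, was at 170.0, 215 and 214 CPM in the cultures, 1560.0, 2229.8 and 655 CPM in injured cortex and 1041, 248 and 131 CPM in uninjured cortex. As for Ccl4, uninjured replicate 1 lay among the injured libraries. It was not called between injured and uninjured cortex (log2 1.65 ± 0.64, adjusted p = 0.122; 0.0042 without uninjured replicate 1 and 0.0305 without injured replicate 3) and was lower in the cultures than in injured cortex (log2 -2.89 ± 0.67, adjusted p = 0.00384). Ccl5, a chemokine that T cells also make, was at 5.83, 11.6 and 6.26 CPM in the cultures, 233, 73.4 and 34.0 CPM in injured cortex and 5.03, 6.61 and 3.42 CPM in uninjured cortex. Cultures and uninjured cortex overlapped, and all injured libraries were above both. Its difference was 22.5-fold between injured and uninjured cortex (log2 4.49 ± 0.63, adjusted p = 0.000722), and the cultures were 14.3-fold below injured cortex (adjusted p = 0.000297). Without injured replicate 1 these were 10.5-fold and 6.82-fold, and both calls held. Against uninjured cortex the cultures had a log2 fold change of 0.65 (adjusted p = 0.343) for Ccl5 and -1.25 (adjusted p = 0.107) for Ccl3. With no filter on low counts edgeR called Ccl5 higher (adjusted p = 0.0465) and Ccl3 lower (adjusted p = 0.000352) there. Ccl3 was also called lower with the 2 groups fitted alone (adjusted p = 0.0433) and without uninjured replicate 3 (adjusted p = 0.025).

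Ccl6 and Ccl9, a pair of rodent CCR1 ligands made by myeloid cells, were higher in the cultures than in either cortex group. Ccl6 was at 1069, 1228 and 1463 CPM in the cultures, 323, 396 and 122 CPM in injured cortex and 159.7, 178 and 154 CPM in uninjured cortex. All 3 cultures were above all 6 cortex libraries, and the cortex groups overlapped. The log2 fold change of the cultures was 2.16 ± 0.38 against injured cortex (adjusted p = 0.000573) and 2.94 ± 0.39 against uninjured cortex (adjusted p = 4.83e-05). Ccl9 was at 475, 532 and 588 CPM in the cultures, 274, 249 and 81.7 CPM in injured cortex and 109, 97.0 and 63.9 CPM in uninjured cortex. The cultures were again above all cortex libraries, by 1.40 ± 0.38 on the log2 scale against injured cortex (adjusted p = 0.00983) and 2.57 ± 0.40 against uninjured cortex (adjusted p = 0.000177). Between injured and uninjured cortex neither was called (adjusted p = 0.198 for Ccl6 and 0.0698 for Ccl9), and both were called higher without injured replicate 3, as was Ccl9 by the Wald test of DESeq2 (adjusted p = 0.0381).

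Pf4, platelet factor 4, which macrophages of brain borders also express, had the largest fold of the ligand genes called higher in the cultures, in both comparisons. It was at 375, 214 and 267 CPM in the cultures, 12.6, 28.2 and 18.3 CPM in injured cortex and 13.6, 24.1 and 23.4 CPM in uninjured cortex. The cultures were far above all cortex libraries, whose groups overlapped. The difference was 14.5-fold against injured cortex (log2 3.86 ± 0.36, adjusted p = 5.06e-06) and 14.0-fold against uninjured cortex (log2 3.81 ± 0.36, adjusted p = 3.23e-06), while injured and uninjured cortex gave a log2 fold change of -0.05 ± 0.33 (adjusted p = 0.942). The other 5 platelet and megakaryocyte markers did not share its level in the cultures: Itga2b was at 0.46 to 0.614 CPM there, Gp9, Gp1bb and Gp6 at 0 to 0.287 CPM, and Ppbp at 0.46 to 1.33 CPM. Gp9 was at 4.87 to 9.63 CPM in injured cortex and 7.93 to 22.2 CPM in uninjured cortex.

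The transmembrane chemokine Cx3cl1, or fractalkine, whose receptor marks microglia, was at 31.7, 22.3 and 16.2 CPM in the cultures, 5.66, 3.25 and 7.62 CPM in injured cortex and 6.68, 2.52 and 3.48 CPM in uninjured cortex. Neurons are its main source in intact brain, and the sort removed a neuronal fraction from both cortex groups and not from the cultures. All cultures were above all cortex libraries (log2 2.08 ± 0.42, adjusted p = 0.00157 against injured, and 2.47 ± 0.43, adjusted p = 0.000395 against uninjured cortex). Neuronal markers summed to 5.96 to 14.5 CPM in the cultures, 11.2 to 18.9 CPM in injured cortex and 5.18 to 13.5 CPM in uninjured cortex. Of the 5 tested, 2 were called higher in the cultures than in uninjured cortex and 0 lower (40%, against 60.5% of all genes). Against injured cortex 1 was called higher and 1 lower (40%, against 50.1% of all genes). Cxcl16, the other transmembrane ligand, was at 209, 252 and 221 CPM in the cultures, 402, 474 and 137 CPM in injured cortex and 84.3, 40.6 and 33.8 CPM in uninjured cortex. Cultures and injured cortex overlapped, and both were above uninjured cortex. It was called higher in injured (log2 2.67 ± 0.45, adjusted p = 0.00234) and in culture libraries (log2 2.10 ± 0.44, adjusted p = 0.00147) than in uninjured cortex.

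Cxcl12, which acts on CXCR4 and retains progenitor cells and leukocytes, was at 34.5, 15.7 and 25.0 CPM in the cultures, 13.4, 12.5 and 22.6 CPM in injured cortex and 27.1, 26.2 and 31.8 CPM in uninjured cortex. All injured libraries were below all uninjured ones, but edgeR called it in no comparison (log2 -0.81 ± 0.31, adjusted p = 0.112 for injured against uninjured cortex). It was called lower in injured cortex by the Wald test of DESeq2 (adjusted p = 0.0462), and by edgeR when injured replicate 3 was left out (adjusted p = 0.0153). Cxcl14, a constitutively expressed chemokine of skin and brain, was at 32.1, 28.1 and 54.9 CPM in the cultures, 39.9, 41.7 and 89.1 CPM in injured cortex and 92.0, 73.3 and 93.4 CPM in uninjured cortex. The cultures were below all uninjured libraries (log2 -1.17 ± 0.34, adjusted p = 0.00973), and injured replicate 3 lay within the uninjured range. Ccl25 and Ccl27a, ligands of CCR9 and CCR10 with homing roles in gut and skin, were at 4.18 to 9.37 CPM and 2.09 to 4.43 CPM over the 9 libraries and were called in no comparison.

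Ccl22, Xcl1 and Ccl19 were all called lower in the cultures than in injured cortex. Ccl22, a CCR4 ligand made by dendritic cells and macrophages, was at 1.9, 0.747 and 0.626 CPM in the cultures, 14.2, 17.9 and 4.19 CPM in injured cortex and 2.1, 0.99 and 0.427 CPM in uninjured cortex. The injured libraries were above all others (log2 3.36 ± 0.66, adjusted p = 0.00612 against uninjured cortex), and the cultures were below them (log2 -3.45 ± 0.67, adjusted p = 0.00126). Without uninjured replicate 1 the first was 4.06, and without culture replicate 1 the second was -4.11. Xcl1, a ligand of XCR1 on dendritic cells that NK and T cells make, had 1 count in the 3 cultures together, in replicate 2, and was at 11.6, 1.83 and 1.43 CPM in injured cortex and 0.994, 1.39 and 0.671 CPM in uninjured cortex. By its counts it was 215-fold lower in the cultures than in injured cortex (95% counting interval 38.4 to 8532; adjusted p = 0.000344), and 73.8-fold lower without injured replicate 1. Between injured and uninjured cortex its adjusted p was 0.0747 in edgeR and 0.0345 in the Wald test of DESeq2, which called it higher in injured cortex, as did edgeR without injured replicate 2 or 3 (adjusted p = 0.0426 and 0.0112). Ccl19, a CCR7 ligand, had 4 counts in the cultures, 76 in injured cortex and 72 in uninjured cortex, of which 66 were in uninjured replicate 3. It was called lower in the cultures in both comparisons (adjusted p = 0.0425 against injured and 0.0227 against uninjured cortex), and without uninjured replicate 3 the second had a log2 fold change of -0.75, against -3.93 with it, and an adjusted p of 0.555. That call was also lost in limma-voom and without culture replicate 1 or 2. Against injured cortex its adjusted p was 0.0553 to 0.137 when any 1 of the 6 libraries compared was left out. The gene has near-identical copies, so its counts are uncertain.

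The eotaxins Ccl11 and Ccl24, which draw eosinophils through CCR3, differed from each other. Ccl11 had 3 counts in the cultures, 48 in injured cortex and 17 in uninjured cortex, and was called lower in the cultures than in injured cortex, 10.7-fold by its counts (95% counting interval 3.44 to 53.5; adjusted p = 0.00861, and 0.051 without culture replicate 2). Its fitted log2 fold change of -3.32 was -2.73 without culture replicate 1 and -4.33 without culture replicate 3. Ccl24 was at 0.184, 1.38 and 5.16 CPM in the cultures, 2.17, 2.36 and 2.21 CPM in injured cortex and 6.24, 5.31 and 5.86 CPM in uninjured cortex. The cultures spread widely, and the uninjured libraries were above all others, but edgeR called it in no comparison (adjusted p = 0.238 for injured against uninjured cortex, 0.104 for the cultures against uninjured cortex). In the cultures against uninjured cortex it was called lower by limma-voom (log2 -2.41, adjusted p = 0.0122) and without culture replicate 3 (adjusted p = 0.00381).

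Of the 13 untested genes, Cxcl13, the CXCR5 ligand that organises B cell follicles, had the most counts, 198 in all. It had 0 in the cultures, 191 in injured cortex, of which 165 were in replicate 1, and 7 in uninjured cortex. With the same floor the cultures were at least 42.4-fold lower than injured cortex, and at least 8.30-fold without that replicate. Ccl28 had 1 count in the cultures, 0 in injured cortex and 23 in uninjured cortex, at least 9.42-fold lower in injured than in uninjured cortex. Uninjured replicate 3 held 15 of the 23, and without it the bound was 4.61-fold. Cxcl17, Ccl17, Ccl21b, Ccl20, Ccl1, Ccl21a, Cxcl15 and Ccl27b had at most 13 counts in any group, and Ccl21d and Ccl26 had 0 throughout. For a gene at 0, a count of 3 over the group, or 0.0646 CPM in the cultures, 0.0431 CPM in injured cortex and 0.0529 CPM in uninjured cortex, is the level that cannot be told from absence, for counting error only. Ccl21a, Ccl21b and Ccl21d, and Ccl27a and Ccl27b, are near-identical copies whose reads could have been split between them.

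The receptor genes, a list of 22 of which 17 were tested, were set beside their ligands. In injured against uninjured cortex 11 were higher and 0 lower (64.7%, against 11.9% of all genes), with 12 higher and 1 lower at an unadjusted p under 0.05 in edgeR. The Wald test of DESeq2 called 12 higher and 1 lower, and limma-voom 9 higher and 1 lower. In the cultures against uninjured cortex 2 were higher and 5 lower (41.2%, against 60.5% of all genes). In the cultures against injured cortex 0 were higher and 13 lower (76.5%, against 50.1% of all genes), where 2 were higher and 14 lower at an unadjusted p under 0.05 (57.1% of all genes), and both other tools called 2 higher, with 13 lower in the Wald test and 11 in limma-voom. Ccr2, the receptor of Ccl2 and Ccl12 on monocytes, was at 2.82, 0.862 and 1.1 CPM in the cultures, 202, 145 and 50.0 CPM in injured cortex and 2.98 to 6.79 CPM in uninjured cortex. The cultures, whose Ccl2 overlapped the injured range, had Ccr2 below all injured libraries (log2 -6.36 ± 0.62, adjusted p = 6.59e-06).

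Cxcr2, the neutrophil receptor, was at 0.115 to 0.184 CPM in the cultures, 4.59 to 14.2 CPM in injured cortex and 0.11 to 0.36 CPM in uninjured cortex (log2 5.01 ± 0.57, adjusted p = 0.000188 for injured against uninjured cortex). Ccr7 was at 0.783 to 2.41 CPM in the cultures, 33.4 to 217 CPM in injured cortex and 2.87 to 4.03 CPM in uninjured cortex (log2 5.21 ± 0.61, adjusted p = 0.000221 for injured against uninjured cortex). Ccr1, the receptor of Ccl6 and Ccl9, was not called between the cultures and injured cortex (log2 0.29 ± 0.47, adjusted p = 0.621). It was at 141, 162 and 209 CPM in the cultures, 227, 149 and 41.8 CPM in injured cortex and 22.1, 12.9 and 10.2 CPM in uninjured cortex. Cultures and injured cortex overlapped, and both were above uninjured cortex (log2 3.50 ± 0.52, adjusted p = 0.000122 for the cultures and 3.21 ± 0.51, adjusted p = 0.00167 for injured cortex). Cx3cr1, the fractalkine receptor, was at 70.4, 49.0 and 16.7 CPM in the cultures, 506, 766 and 502 CPM in injured cortex and 860.2, 1062 and 627 CPM in uninjured cortex, and was lower in the cultures (log2 -4.22 ± 0.48, adjusted p = 1.52e-05 against uninjured cortex), where its ligand was higher.

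Cxcr4, the receptor of Cxcl12, was at 2.27 to 3.99 CPM in the cultures, 4.66 to 19.6 CPM in injured cortex and 0.11 to 0.405 CPM in uninjured cortex. It was higher than in uninjured cortex both in injured cortex (log2 5.41 ± 0.73, adjusted p = 0.000582) and in the cultures (log2 3.75 ± 0.72, adjusted p = 0.000808), where the ligand itself was not called. Ackr3, which scavenges Cxcl12, was at 4.07 to 5.83 CPM in the cultures, 11.5 to 19.0 CPM in injured cortex and 26.0 to 30.7 CPM in uninjured cortex, and the 3 groups did not overlap (log2 -2.54 ± 0.27, adjusted p = 8.1e-06 for the cultures against uninjured cortex). Ccrl2, an atypical receptor of myeloid cells, was at 14.6 to 21.1 CPM in the cultures, 233 to 638 CPM in injured cortex and 53.4 to 323 CPM in uninjured cortex, and was lower in the cultures (log2 -3.21 ± 0.58, adjusted p = 0.000542 against uninjured cortex). Cxcr3, the receptor of Cxcl9 to Cxcl11, was at 3.99 to 5.29 CPM in the cultures, 4.83 to 27.5 CPM in injured cortex and 2.21 to 3.66 CPM in uninjured cortex, and was called higher in injured cortex (log2 2.42 ± 0.51, adjusted p = 0.00938), a call lost in limma-voom and without injured replicate 1 or uninjured replicate 2. The 11 receptor calls in injured against uninjured cortex became 6 when either injured replicate 1 or uninjured replicate 2 was left out, and 4 when uninjured replicates 2 and 3 were left out together.

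**Figure D4:**
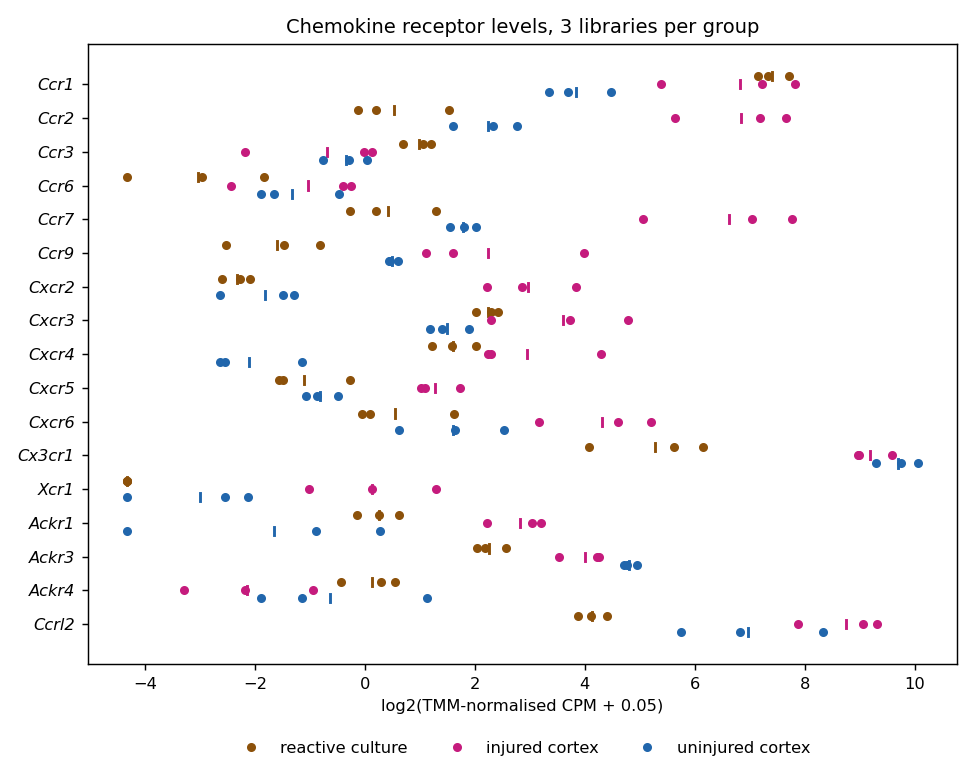
Levels of the 17 tested chemokine receptor genes as log2 of TMM-normalised CPM plus 0.05, 1 point per library and a tick at each group mean. The injured libraries lie right of the others for Ccr2, Ccr7 and Cxcr2, while the cultures overlap the injured libraries for Ccr1.

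The 7 cytokines that induce chemokines (Il1a, Il1b, Tnf, Il6, Ifng, Ifnb1 and Il17a) summed to 35.9, 40.8 and 52.3 CPM in the cultures, 4726, 5889.7 and 1572 CPM in injured cortex and 2094, 381 and 152 CPM in uninjured cortex. Injured replicate 3 and uninjured replicate 1 lay close together here, as they did for the summed ligands. The 12 immediate early genes, which cell dissociation is known to induce, summed to 1547, 1740.3 and 1584 CPM in the cultures, 13369, 17195 and 8626 CPM in injured cortex and 15432, 9629 and 3699 CPM in uninjured cortex. Between injured and uninjured cortex the immediate early sums overlapped and 1 of the 12 genes was called, higher (8.33%, against 8.99% of all genes called higher). In the cultures 9 of 12 were called lower than in uninjured cortex (75%, against 33.1% of all genes called lower). The order of the 3 uninjured libraries was the same for the immediate early genes, the cytokines and the summed ligands. The cortex cells were dissociated and sorted before lysis and the cultures were not sorted, so this handling and the groups cannot be told apart for the cultures.

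The 6 monocyte markers summed to 16.7 to 17.7 CPM in the cultures, 1779, 735 and 255 CPM in injured cortex and 21.5 to 39.4 CPM in uninjured cortex. The 7 T and NK cell markers summed to 9.86 to 17.0 CPM in the cultures, 288, 122 and 72.2 CPM in injured cortex and 9.33 to 28.0 CPM in uninjured cortex. The 5 dendritic cell markers summed to 1.02 to 2.93 CPM in the cultures, 386, 212 and 66.0 CPM in injured cortex and 22.6 to 42.7 CPM in uninjured cortex, and Xcr1 was at 0 in the cultures. In injured cortex the monocyte, T and NK cell and dendritic cell sums all fell from replicate 1 to replicate 3. Cxcl1, Cxcl2, Cxcl3, Ccl5, Ccl9, Cxcl9, Cxcl10, Cxcl11 and Xcl1 fell in this order too. Among those highest in replicate 2 instead were Ccl2, Ccl3, Ccl4, Ccl6, Ccl7, Ccl12, Ccl22 and Cxcl16. The 9 neutrophil markers summed to 187 to 216 CPM in the cultures, 466 to 649.5 CPM in injured cortex and 205 to 287 CPM in uninjured cortex, and Ly6g was at most 1.20 CPM in any library. Mmp8, a collagenase, made up most of the culture sum, at 157 to 174 CPM, while the other 8 markers were called lower in the cultures than in injured cortex, and 5 of them lower than in uninjured cortex. Of the 9 markers these were 88.9% and 55.6%, against 30.1% and 33.1% of all genes called lower. In either direction 66.7% of the 9 were called against uninjured cortex, near the 60.5% of all genes. The 6 fibroblast markers summed to 214 to 529.9 CPM in the cultures, 47.3 to 143 CPM in injured cortex and 28.9 to 39.4 CPM in uninjured cortex. The part of these cell types and of immediate early induction in the ligand results was not tested.

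**Figure D5:**
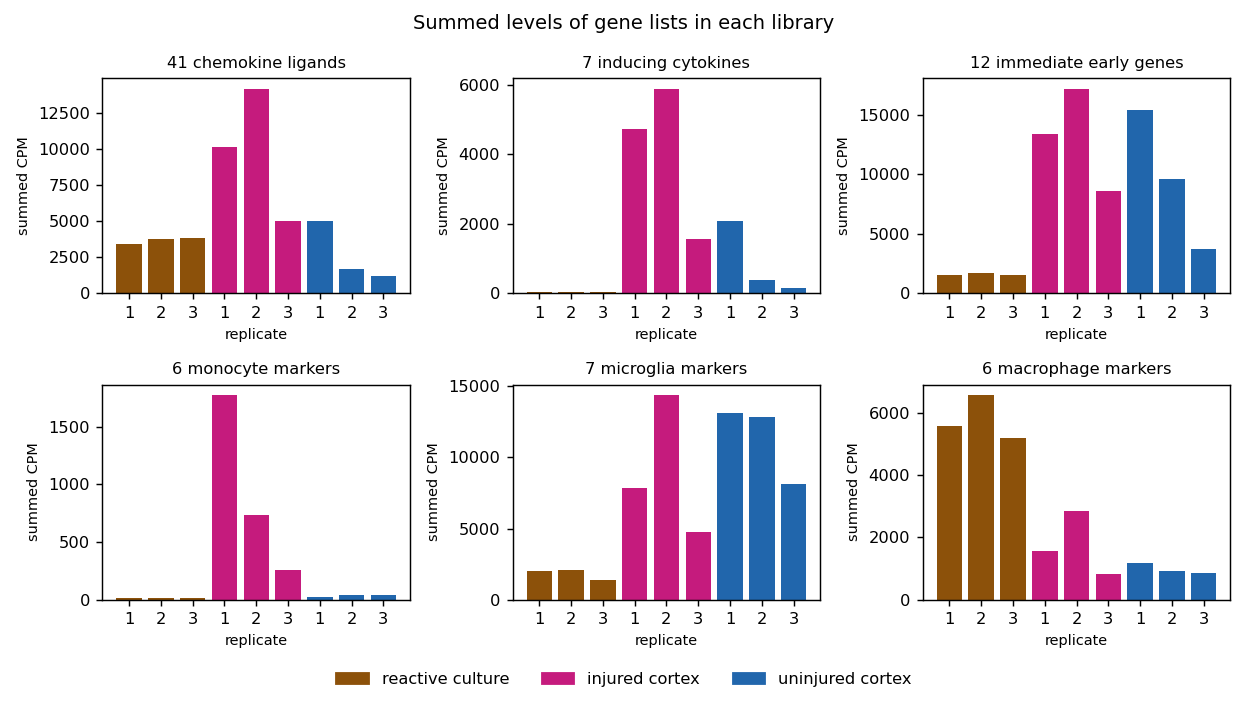
Summed TMM-normalised CPM of 6 gene lists in each library (bars, y axes from 0, x axis the replicate number within the group). The ligand and cytokine sums are largest in injured replicates 1 and 2, the monocyte sum in injured replicate 1, and the macrophage sum in the 3 cultures.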

How the data were processed

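RNA sequencing libraries of 3 reactive cultures, 3 injured cortices and 3 uninjured cortices fall into groups by their sample labels. The values analysed are the gene counts deposited by the authors, not normalised. HISAT2 and the build GRCm39 are named per the submitters' processing notes, without versions. Counting tool, annotation and strand setting: not given in the sources used here. Reads of overlapping genes on opposite strands may therefore not have been told apart.

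From these counts, edgeR 4.0.16 in R 4.3.3 gave CPM with library sizes adjusted by TMM (a trimmed mean of log ratios between libraries) and quasi-likelihood tests of the 3 group means over all 9 libraries (6 residual degrees of freedom). Genes kept by filterByExpr were tested, 18093 in all, with Benjamini-Hochberg adjustment over all of them and calls at an adjusted p under 0.05. SE is the log2 fold change divided by the square root of the F statistic. Replicate libraries differed beyond sampling noise (chi-square per degree of freedom 16.0 to 164). The fit was run on simulated data with changes set between injured and uninjured cortex only, so the culture comparisons were not tested in this way. Alternatives were other scalings, DESeq2 1.42.0, limma-voom (limma 3.58.1), other filters on low counts, a fit of the 2 groups alone, a term for replicate number (the replicate block), and libraries left out in turn. Genes at 0 counts were given 3 counts over their group as a floor, and ratios with 1 to 3 counts have a 95% interval for counting error only.

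Values in every library are given for ligand genes with a group mean of at least 10 CPM or a call, and for up to 4 receptors of smallest adjusted p in each comparison plus the receptors of those ligands, except 1 receptor that is not reported here and is left out of the receptor counts. The ligand genes, the lists and the promoter patterns were chosen with earlier results of these data known.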

Additional observations from a re-analysis of the deposited data

How the results depend on the processing

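In injured against uninjured cortex, 10 ligand genes were called, and 19 were called with no filter on low counts, 7 to 20 with 1 library left out, and 1 with uninjured replicates 2 and 3 left out together, which leaves 1 uninjured library. In the cultures against injured cortex 19 were called, and 17 to 22 with 1 library left out. In the cultures against uninjured cortex 15 were called, and 11 to 16 with 1 library left out. All other alternatives stayed within 1.5 times these counts, and no called gene changed direction in any alternative. Of the called genes, 9 of 10, 3 of 19 and 7 of 15 in these comparisons lost the call in at least 1 alternative (4, 3 and 4 when that last fit is set aside), and of those not called, 10, 4 and 7 gained it. The cause was not tested. With a replicate block 11, 19 and 17 ligand genes were called, but no label says that the numbers pair the libraries. Same-numbered injured and uninjured libraries correlated at -0.088 to 0.353 in their deviations from the group means. The highest value was between replicates 3 of both groups, while injured replicate 2 correlated best with uninjured replicate 1 (0.267). Same-numbered culture and injured libraries correlated at -0.043 to 0.146. With 3 libraries per group these values cannot decide whether libraries were paired. Under the block Ccl4 was called in injured against uninjured cortex (adjusted p = 0.0227) and not in the cultures against uninjured cortex (adjusted p = 0.061), while Ccl7, Ccl24 and Cxcl9 gained a call there. Upper-quartile scaling moved the median log2 fold change of all genes by -0.12 in injured against uninjured cortex and -0.20 in the cultures against uninjured cortex. Library sizes without the most abundant genes moved it by -0.15 and -0.41 in these 2 comparisons and by -0.26 in the cultures against injured cortex, and a fit of the 2 groups alone by 0.11 in that last one. The depth limits Cxcl3 and Cxcl11 in uninjured cortex, with 6 and 13 counts over the group.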
